A study of Mus musculus with 2 samples.

Results

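The cytosolic ribosomal protein genes, which encode the proteins of the ribosome outside mitochondria, were followed on 2 arrays of alveolar macrophages, which live in the air spaces of the lung. Members were the array features (transcript clusters) annotated with exactly 1 gene symbol of the cytosolic Rpl or Rps families, with Rplp0, Rplp1, Rplp2 and Rpsa, and without symbols that mark pseudogenes (-ps). Where a gene had several features, the feature with the highest mean over both arrays stood for it. The rule found 66 genes, 42 of the large and 24 of the small subunit, among 22180 named genes, and it used no difference between the arrays. RefSeq lists 64 of the 66 as protein-coding, and Rpl6l and Rps4l as pseudogenes. A further 20 protein-coding genes of these families in RefSeq had no feature of their own, and 13 of them shared a feature with other genes. Their single-gene values are not analysed here.

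The cells were flow-sorted from mouse lungs at 8 to 10 weeks of age. The control array came from Lysm-Cre animals and the other from animals labelled Lysm-Cre Ssu72fl/fl, so both genotypes carried Cre recombinase, which the lysozyme 2 locus drives in myeloid cells. The second genotype is written as floxed on both alleles of Ssu72 (fl/fl). Ssu72 encodes a phosphatase that acts on the tail of RNA polymerase II, and the comparison asked how expression differed with the floxed alleles. Each genotype had 1 array, and how many mice it stands for is not stated in the sources used here. No test between genotypes, p-value or SD was therefore possible, and precision is limited by having 2 arrays. Differences are in log2 units, with the control value subtracted, so a negative one means lower on the array labelled Ssu72fl/fl. Paired values are given in the order control, then the array labelled Ssu72fl/fl.

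The ribosome is made of a small subunit, which holds the mRNA and checks the match of codon and tRNA, and a large subunit, which joins amino acids and passes the growing chain out through an exit tunnel. Cells keep its proteins in balance, and mRNAs of ribosomal proteins share a terminal oligopyrimidine (TOP) tract, a run of C and T letters at the 5′ end through which the growth kinase mTORC1 and the RNA-binding protein LARP1 control their translation. Several of the proteins are mutated in Diamond-Blackfan anaemia, a failure of red cell production.

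The region around the start of the gene, where the TOP tract lies, is shown for members that carry the results below: 3 of the 8 members at least 1.5-fold lower (Rps24, Rpl7a and Rpsa), the highest small subunit gene (Rps16), and others of high signal with and without a tract. Sequences are from RefSeq (build GRCm38.p6) and run 5′ to 3′ from 40 bases before the annotated start through its first 20 bases. Capitals mark the longest unbroken run of at least 8 C or T letters that lay within 20 bases of the start; lines without capitals have none.
Rpl7a (chr2:26910767-26910826, plus strand): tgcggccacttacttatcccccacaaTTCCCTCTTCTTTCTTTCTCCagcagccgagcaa
Rpl35 (chr2:39005112-39005171, minus strand): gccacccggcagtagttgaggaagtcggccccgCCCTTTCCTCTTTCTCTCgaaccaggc
Rpl28 (chr7:4792925-4792984, plus strand): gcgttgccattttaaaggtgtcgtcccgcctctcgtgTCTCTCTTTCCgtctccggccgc
Rps6 (chr4:86857348-86857407, minus strand): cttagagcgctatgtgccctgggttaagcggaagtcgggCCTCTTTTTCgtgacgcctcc
Rps12 (chr10:23787190-23787249, minus strand): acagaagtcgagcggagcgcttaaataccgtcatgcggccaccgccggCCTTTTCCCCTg
Rps24 (chr14:24490638-24490697, plus strand): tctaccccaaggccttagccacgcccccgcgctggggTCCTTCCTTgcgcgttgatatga
Rpsa (chr9:120127726-120127785, plus strand): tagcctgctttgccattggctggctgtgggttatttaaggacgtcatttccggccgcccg
Rpl41 (chr10:128549149-128549208, minus strand): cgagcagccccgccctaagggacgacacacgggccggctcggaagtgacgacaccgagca
Rps16 (chr7:28350649-28350708, plus strand): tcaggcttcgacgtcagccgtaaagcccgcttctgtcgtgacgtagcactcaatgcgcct
Such a run was found in 25 of the 51 members that RefSeq's promoter table held (49.0%), against 15.9% of the first listed promoters of all 27025 genes. The letters CCGGAAG, the core bound by ETS family factors, stood on either strand from 250 bases before to 50 after the start in 21 of 51 (41.2%, against 9.12% of all); this is a match of letters only. The letters TATAAA, searched the same way, stood in 5 of 51 (9.80%, against 14.2% of all). The 21 compared members with a pyrimidine run had a median difference of -0.29 (level-adjusted 0.016), and the 20 without one had -0.24 (level-adjusted -0.031); the difference between them was not tested. Annotated starts can lie some bases away from the start used in the cell, and for Rpl41, Rpsa and Rps16 the lack of a run in this window says only that these letters are not there.

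The target gene was read first as a check of the labels. Ssu72 was at 4.862 and 4.998, a difference of 0.14 against a spread of 0.14, so the target was not lower where the label has it floxed. Where its probes lie relative to the floxed part is not stated in the sources used here, so the gene does not check the label, and directions rest on that label. Markers of alveolar macrophages were present, with all 11 that could be matched of 12 above the floor and 10 of them lower (median -0.31, level-adjusted -0.049). Of other cell types, 1 of 4 B cell markers (Ms4a1) and 2 of 5 T cell markers (Cd3e and Cd3g) were below the floor on both arrays. Surfactant protein C (Sftpc, of alveolar type 2 cells) read 8.71 and 8.35 and the immunoglobulin gene Ighm 7.46 and 6.88. Of the compared markers, 4 of 5 were lower for alveolar type 2 cells, 4 of 5 for neutrophils, 3 of 3 for monocytes, 3 of 4 for fibroblasts, 3 of 3 for endothelial cells, 2 of 3 for B cells and 1 of 3 for T cells, where 51.9% of all compared genes were lower. Their level-adjusted medians were -0.0083, -0.057, -0.26, -0.052, -0.11, -0.0097 and 0.093 in that order. Their part in the results was not tested; fewer cells of a type and less RNA per cell cannot be told apart here.

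On the deposited scale, all 31 ribosomal protein genes with a mean level over 6 were lower with the Ssu72fl/fl label, and 10 of the 31 turned higher when the level trend described below was removed. A gene entered the comparison when it exceeded the floor on 1 array or both, the floor being the median of all values on both arrays (4.65); 56 of the 66 passed, 54 of them on both arrays. Of the 56, 40 were lower and 16 higher (against 51.9% lower and 48.1% higher among all 13015 compared genes), with a median of -0.24 against -0.0068 for all compared genes. The 31 members over level 6 ran from -0.069 (Rps10) to -0.78 (Rps24), where 77% of all 856 compared genes of such a level were lower. At least 1.5-fold lower were 8 members, all of mean level over 6. Lower by as much were 1.37% of all compared genes, and 15.1% of those with a mean level over 6. No member was 1.5-fold higher, against 0.315% of compared genes. No member reached 2-fold, lower (0.0845% of compared genes, 1.17% of those over level 6) or higher (0.0307%). Quantile normalization gave 30 members lower and 24 higher, in place of 40 and 16.

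**Figure D1:**
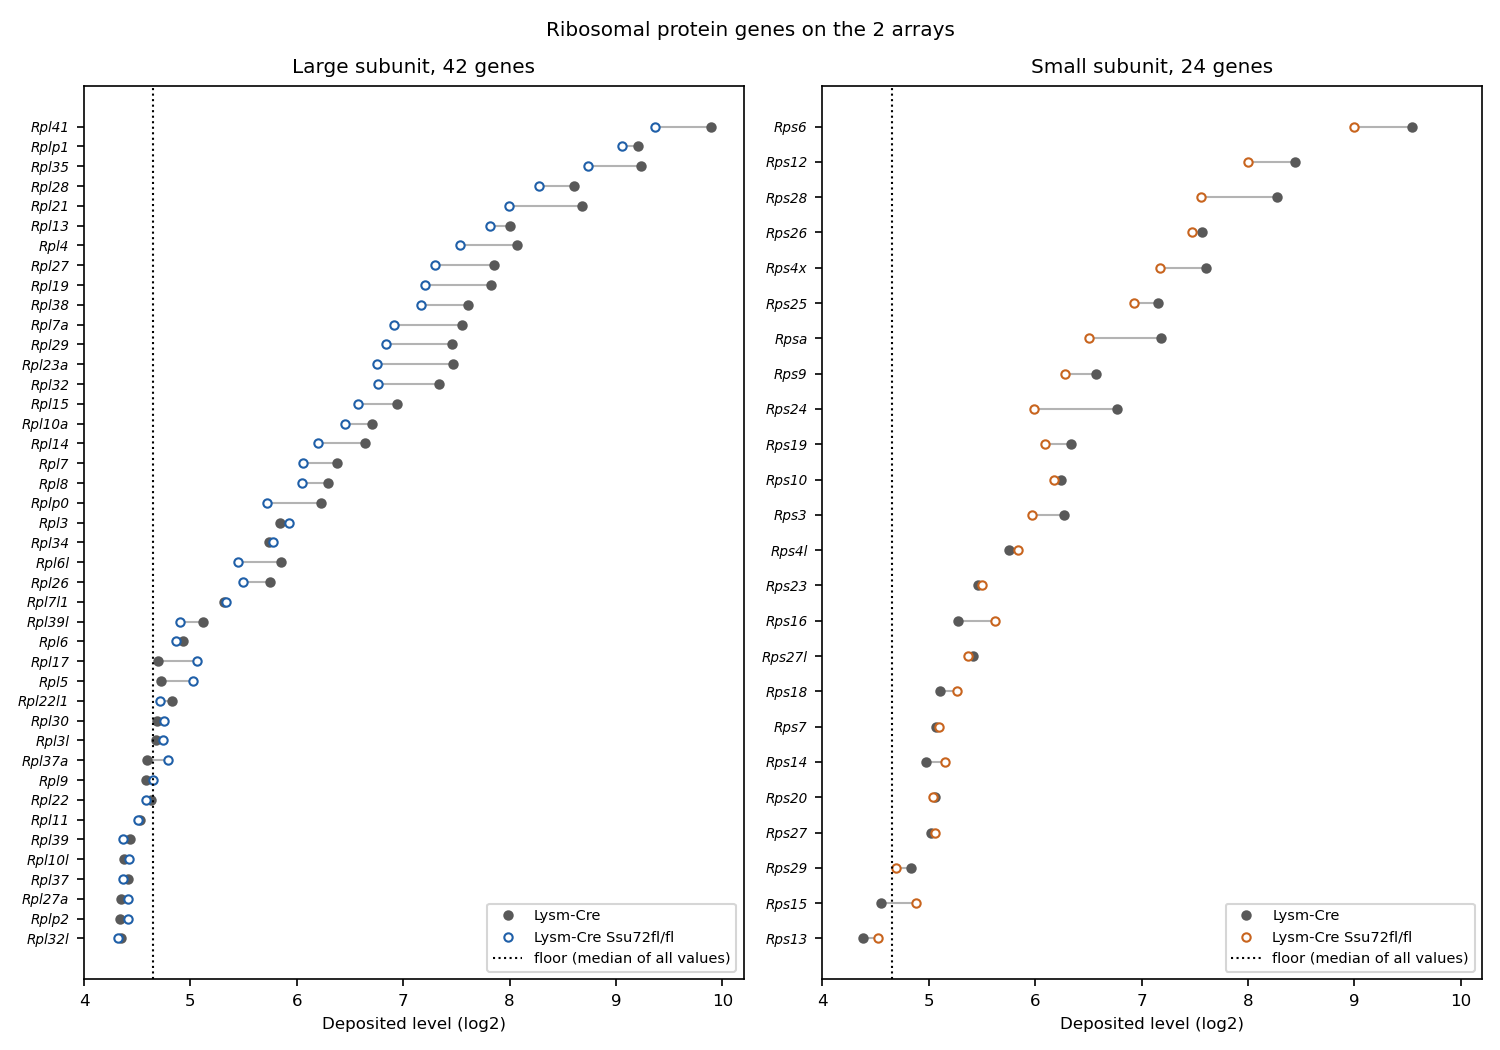
Deposited log2 level (horizontal axis) of the 42 large subunit genes (left) and 24 small subunit genes (right), ordered by mean level. Filled points are the control array, open points the array labelled Ssu72fl/fl, and the dotted line the floor of 4.65. Open points lie to the left of filled points for every gene with a mean level over 6, while genes near the floor show both orders.

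The size of the difference followed the level of the feature, as it did for other genes. Members with a mean level from 7 to 8 had a median of -0.55 (13 genes), against -0.42 for 104 other protein-coding genes of that level. From 6 to 7 the medians were -0.29 (11 members) and -0.20 (508 others), and from 8 to 10 they were -0.50 (7 members) and -0.49 (31 others). In the 3 bands from 6 to 10 the members' median was therefore lower than that of the other genes; these differences were not tested. From 5 to 6 the order turned, at 0.034 (16 members) against -0.034 (4134 others), and so it was from the floor to 5, at 0.067 (9 members) against 0.0081 (6043 others). A level-adjusted difference is therefore given beside the deposited one; it is the distance of a gene from a smooth line through the differences of all features ordered by level.

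**Figure D2:**
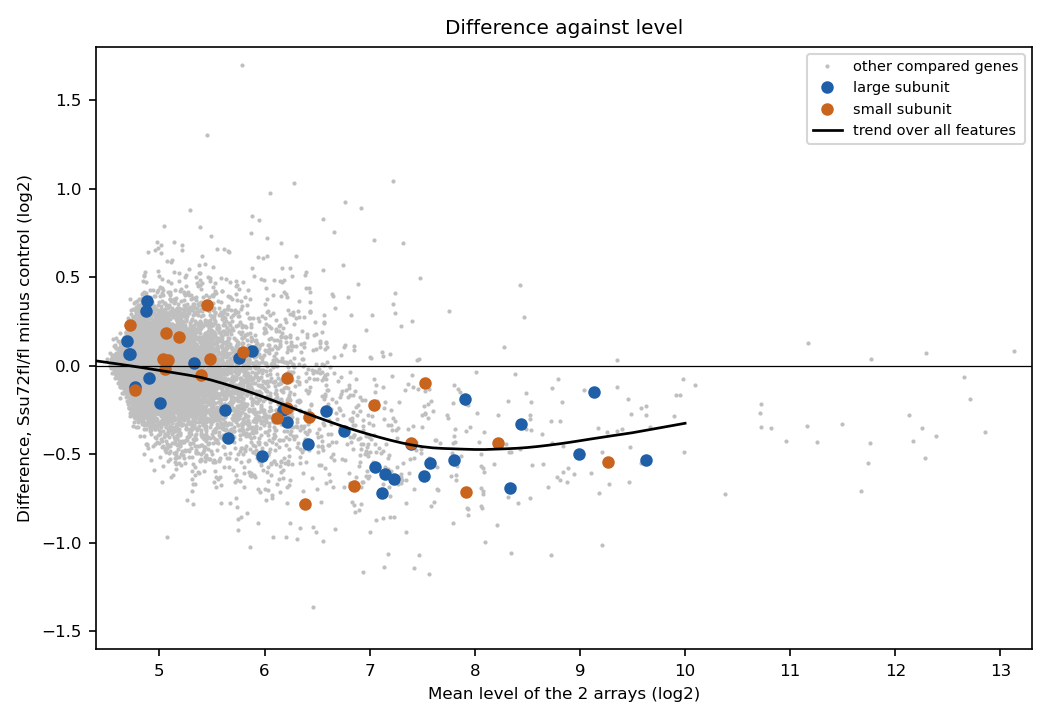
Difference (log2, vertical axis) against the mean level of both arrays (log2, horizontal axis) for all compared genes. Grey points are other genes, blue and orange points the large and small subunit genes, and the black line the trend that was subtracted for level-adjusted values. The members follow the downward bend of the line, which reads -0.39 at level 7.

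After the level adjustment the members as a whole were balanced around 0, though not within each range of level. Of 56, 28 were lower and 28 higher (against 44.8% lower and 55.2% higher among all compared genes), with a median of -0.0020 against 0.020 for all compared genes. Of the 40 members lower on the deposited scale, 12 became higher, while all 16 higher ones stayed higher. No member was past 1.5-fold in either direction when level-adjusted, where 0.3% of compared genes were lower by that much and 0.776% higher, and over level 6 the shares were 2.34% and 6.31%. For members of mean level over 6 the level-adjusted robust SD was 0.15 (31 genes), against 0.30 for 643 other protein-coding genes of levels 6 to 10, and their median was -0.073 against 0.040. Of these 31, 21 were lower when level-adjusted, against 45.9% of all compared genes over level 6. Below that level the members' medians lay above 0. From 5 to 6, 4 of 16 members were lower when level-adjusted, against 1875 of 4134 other protein-coding genes (medians 0.069 and 0.025). These 4 were among the 7 large subunit genes of that band (median -0.15), while none of the 9 small subunit genes was lower (median 0.12). From the floor to 5, 3 of 9 members were lower, against 2727 of 6043 other protein-coding genes (medians 0.067 and 0.014). These differences in share rest on few members and were not tested. Ribosomal protein genes have many near-identical processed copies in the genome, so their features may take signal from more than 1 locus, and the values are uncertain to that extent.

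The subunits differed in their medians. Large subunit genes had a median of -0.32 (25 of 33 compared lower) and small subunit genes one of -0.095 (15 of 23 lower). When level-adjusted, the medians were -0.065 (20 of 33 lower) and 0.035 (8 of 23 lower), so the small subunit's direction turned while the large subunit's did not. Among genes of mean level 6 to 10, all of which were lower, the deposited medians were -0.50 (19 large subunit genes) and -0.36 (12 small subunit genes), and the level-adjusted ones -0.085 and -0.012. Of the bands from 6 to 10, the gap was widest from 7 to 8, at -0.57 (9 large subunit genes) and -0.33 (4 small subunit genes). From 6 to 7 the medians were -0.32 and -0.29 (level-adjusted -0.032 and -0.051). From 8 to 10 they were -0.50 and -0.49 (level-adjusted -0.073 and -0.056). From 5 to 6 the subunits had medians of opposite sign, with a gap at least as wide as from 7 to 8. The large subunit was at -0.21 (7 genes, level-adjusted -0.15) and the small subunit at 0.037 (9 genes, level-adjusted 0.12). From the floor to 5 they were at 0.067 (7 genes) and 0.047 (2 genes). The difference between subunits was not tested, since no design with 1 array a genotype allows it.

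In the small subunit, Rps24 had the lowest difference of all members. Rps24, a protein needed for processing of the small subunit's rRNA and mutated in Diamond-Blackfan anaemia, read 6.77 and 5.99 (-0.78), and stayed lowest when level-adjusted (-0.51), beyond the spread of 0.31 among genes of its level. Its second feature was also lower (-0.29), and the third read 4.68 and 4.57, below the floor on the array labelled Ssu72fl/fl, so it gives only a bound. Rps28, which lies beside the path by which mRNA leaves, followed at 8.27 and 7.56 (-0.72, level-adjusted -0.24). Rpsa, also known as the laminin receptor precursor, read 7.19 and 6.51 (-0.68, level-adjusted -0.32). Its second feature was lower too (-0.21). Rps6, the protein that S6 kinases phosphorylate, read 9.54 and 8.996 (-0.55, level-adjusted -0.15). These 4 genes were lower on both scales, and for Rps28 and Rps6 the level-adjusted value lay inside the spread of 0.31.

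Rps12, Rps4x, Rps25, Rps26 and Rps10 were lower only on the deposited scale. Rps12 was at 8.44 and 8.00 (-0.44, level-adjusted 0.035) and the X-linked Rps4x at 7.61 and 7.17 (-0.44, level-adjusted 0.0083). Rps26, a protein that contacts mRNA before the start codon, was nearly level at 7.57 and 7.47 (-0.095), which put it at 0.36 when level-adjusted, above the spread of 0.31. Rps25, which some viral and cellular mRNAs need for internal initiation, was at 7.15 and 6.93 (-0.22, level-adjusted 0.18). Rps10 was at 6.25 and 6.18 (-0.069, level-adjusted 0.16). Lower on the deposited scale, Rps3, Rps9 and Rps19 lay close to the trend line. Rps3, Rps9 and Rps19, at 6.27 and 5.97, 6.57 and 6.28 and 6.33 and 6.10, had differences of -0.29, -0.29 and -0.24 (level-adjusted -0.088, -0.014 and -0.010). Rps3 sits at the mRNA entry, and Rps19 is the gene most often mutated in Diamond-Blackfan anaemia.

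The 8 small subunit genes that were higher all had a mean level below 6. Rps16, whose tail reaches toward the tRNA that carries the growing chain, was the highest at 5.27 and 5.62 (0.35, level-adjusted 0.42), and exceeded a spread of 0.21. Rps15, a protein of the subunit's head, read 4.55 and 4.88; its control value lay below the floor, so the difference is a lower bound of 0.23. Rps14 was at 4.97 and 5.16 (0.18, level-adjusted 0.22) and Rps18 at 5.11 and 5.27 (0.16, level-adjusted 0.21). For Rps18 the 2 brighter of 3 features were both 0.16 higher. Rps14, Rps15, Rps16 and Rps18 each exceeded the spread at their level (0.15, 0.099, 0.21 and 0.19). The remaining ones were Rps4l (5.76 and 5.84, 0.080), Rps27 (0.037), Rps23 of the decoding centre (0.036) and Rps7 (0.033). Lower at such levels were Rps29 (4.83 and 4.70, -0.14), Rps27l (-0.050) and Rps20 (-0.017). The second feature of Rps20, of nearly the same level, read 5.16 and 4.85 (-0.31, level-adjusted -0.28), so the size of its difference depends on the feature. Rps13 lay below the floor on both arrays (4.38 and 4.52) and gives no difference.

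In the large subunit, the lowest differences were in genes of level 7 and above. Rpl23a, which lies at the rim of the exit tunnel where the signal recognition particle docks, read 7.47 and 6.75 (-0.72, level-adjusted -0.31). Rpl21 read 8.68 and 7.99 (-0.69, level-adjusted -0.22), and its second feature, of nearly the same level, was at 8.73 and 7.81 (-0.92), while the remaining, dim feature went the other way at 4.73 and 5.08 (0.35). Rpl7a read 7.55 and 6.91 (-0.64, level-adjusted -0.22). Rpl19 and Rpl29 were close behind, at 7.83 and 7.20 (-0.62, level-adjusted -0.16) and 7.46 and 6.84 (-0.61, level-adjusted -0.20). These 5 genes, with Rps24, Rps28 and Rpsa, were the 8 members at least 1.5-fold lower. Rpl32 at 7.33 and 6.76 (-0.57, level-adjusted -0.17), Rpl27 at 7.85 and 7.30 (-0.55, level-adjusted -0.085) and Rpl4, a protein with a loop in the exit tunnel, at 8.07 and 7.54 (-0.53, level-adjusted -0.065) completed the 8 lowest. All 8 remained below 0 when level-adjusted, and only Rpl23a (-0.31) exceeded the spread of 0.31.

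Other large subunit genes with clear signal had differences from -0.15 (Rplp1) to -0.53 (Rpl41). Rpl41, the smallest ribosomal protein, read 9.90 and 9.37 (-0.53, level-adjusted -0.17). Rpl35 read 9.24 and 8.74 (-0.50, level-adjusted -0.073), Rpl38 7.61 and 7.17 (-0.44, level-adjusted 0.0061) and Rpl14 6.64 and 6.20 (-0.44, level-adjusted -0.17). Rpl38 is known for its part in translating Hox mRNAs. Rpl15, Rpl28, Rpl7, Rpl10a and Rpl8 had differences of -0.37, -0.33, -0.32, -0.26 and -0.25, and of these Rpl28 (0.14) and Rpl10a (0.050) were above 0 when level-adjusted. Rpl13 differed little for its level, at 8.01 and 7.81 (-0.19, level-adjusted 0.28). In the band below 6, Rpl6l (5.85 and 5.44, -0.41) and Rpl26 (5.75 and 5.50, -0.25) were lower, and Rpl6 was at -0.069.

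The stalk proteins, which recruit elongation factors to the ribosome, were not alike. Rplp0, the base of the stalk, read 6.23 and 5.72 (-0.51, level-adjusted -0.34), larger than the spread of 0.27 at its level, while its dimmer second feature showed 0.0017. Rplp1 read 9.20 and 9.06 (-0.15, level-adjusted 0.26), one of the smallest differences among members of high signal. Rplp2 lay below the floor on both arrays (4.34 and 4.42). Rpl5 and Rpl11 bind the small rRNA of the large subunit and, when free, hold back Mdm2, the ligase that targets p53. Rpl5 was higher, at 4.72 and 5.03 (0.31, level-adjusted 0.32), where the spread was 0.13, and Rpl11 was below the floor on both arrays (4.53 and 4.50). Of proteins that line the exit tunnel, Rpl17 was higher, at 4.70 and 5.07 (0.37, level-adjusted 0.38), opposite to Rpl23a, Rpl19, Rpl4, Rpl35 and Rpl26; Rpl39 was below the floor. Rpl5 and Rpl17 were near the floor, and their differences shrank under a higher floor, the 75th percentile, to 0.060 and 0.096. Of 6 compared tunnel genes 5 were lower, with a median of -0.52 (level-adjusted -0.11). Lower were 51.9% of all compared genes and 77% of those with a mean level over 6.

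The other large subunit genes that were higher lay between the floor and level 6. Rpl3, near the centre where peptide bonds form, read 5.84 and 5.93 (0.083, level-adjusted 0.24), but its second feature, of a similar level, read 5.95 and 5.35 (-0.60), so its direction depends on the feature. Rpl37a was below the floor on the control array (4.59 and 4.79), and its difference is a lower bound of 0.14. Rpl34 (0.042), Rpl30 (0.067) and Rpl7l1 (0.014) were nearly level. Below the floor on both arrays were 9 large subunit genes: Rpl9 (4.58 and 4.65), Rpl22 (4.63 and 4.58), Rpl11, Rpl39 (4.43 and 4.37), Rpl10l (4.37 and 4.42), Rpl37 (4.41 and 4.37), Rpl27a (4.35 and 4.42), Rplp2 and Rpl32l (4.35 and 4.32). A reading below the floor bounds the feature and not the gene, since a feature can cover a small part of a transcript. Levels of different genes were not set against each other, because they depend on the probes.

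The paralogues named here that could be compared had differences from -0.21 (Rpl39l) to 0.080 (Rps4l). Rpl3l, known from muscle, was at 4.68 and 4.74 (0.067), and Rpl10l, known from testis, below the floor. Rpl39l, also known from testis, was lower at 5.11 and 4.90 (-0.21, level-adjusted -0.18), just past its spread of 0.15. Rpl22l1, which can stand in for Rpl22, was at 4.83 and 4.71 (-0.12, level-adjusted -0.11), with a spread of 0.11. Rps27l, a p53 target, and its parent Rps27 were at 5.42 and 5.37 and at 5.02 and 5.06 (-0.050 and 0.037). Rps4x and Rps4l went opposite ways on the deposited scale (-0.44 and 0.080), as did Rpl7 and Rpl7l1 (-0.32 and 0.014). With compared paralogues (symbols ending in l or l1) left out, the median of the members was -0.26 over 49 genes.

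**Figure D3:**
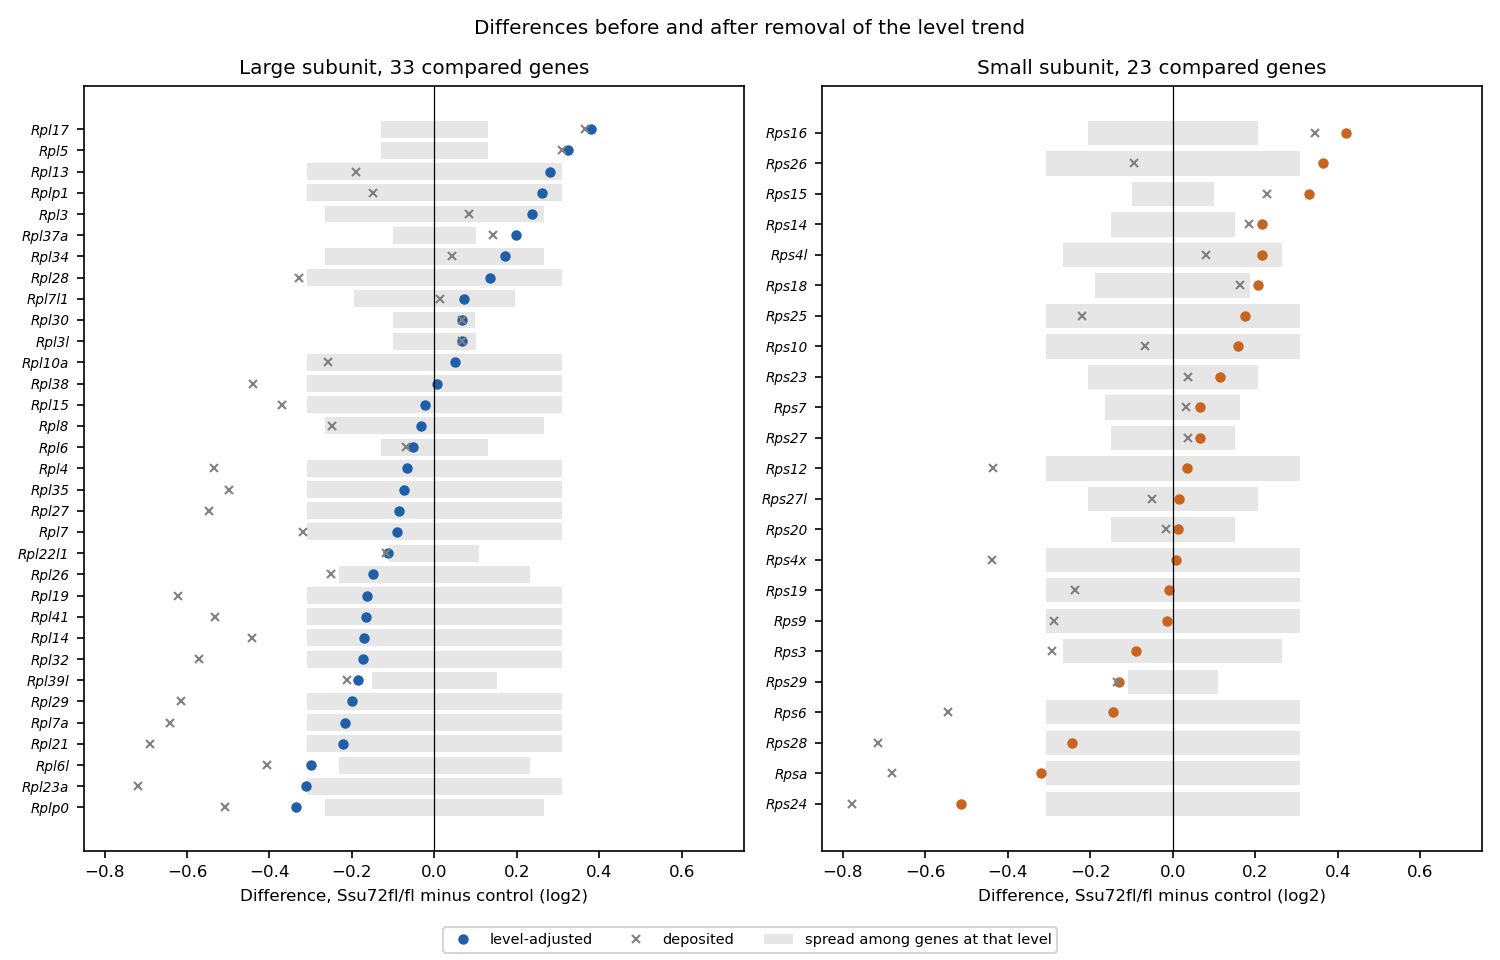
Difference (log2) of each compared gene of the large subunit (left, 33 genes) and small subunit (right, 23 genes), ordered by level-adjusted difference. Crosses are deposited and filled points level-adjusted values; grey bars span the robust SD of level-adjusted differences among all compared genes of that level, to either side of 0. The crosses of most genes lie to the left of their points, and 8 points lie beyond the grey bar on each side.

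Beyond the spread at their level, 8 members were lower and 8 higher when level-adjusted. The lower ones were Rps24, Rplp0, Rpsa, Rpl23a, Rpl6l, Rpl39l, Rps29 and Rpl22l1, and the higher ones Rpl37a, Rps18, Rps14, Rpl5, Rps15, Rps26, Rpl17 and Rps16. Of all compared genes, 13.4% lay below this spread and 18.5% above it. Of the 56 members each side held 8, so over all levels together the members' shares were near that background. They were not spread evenly over the levels. Of the 31 members with a mean level over 6, 4 lay beyond the spread, and the rest of those beyond it had a lower level. Genes mutated in Diamond-Blackfan anaemia lay on both sides: of 14 compared, 11 were lower, with a median of -0.19 (level-adjusted -0.017), from Rps24 to Rpl5. The share lower was 51.9% among all compared genes and 77% among those over level 6. Of the decoding and mRNA channel genes that could be compared, Rps14, Rps15 and Rps23 were higher and Rps3 lower.

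Features of one gene often disagreed when one was bright and another dim. The 66 genes had 106 features, and 24 had more than 1. Identical values on both arrays were found for 12 features of 4 genes (Rpl23a, Rpl7a, Rps12 and Rps19), 6 of them for Rps12, so such features are not separate measurements. Of 20 genes with several distinct features above the floor, all features were lower in 10, all higher in 1 (Rps18), and both directions occurred in 9. Of 39 distinct features with a mean level over 6, 38 were lower (median -0.44), where 77% of all 856 compared genes of such a level were lower. From 5 to 6, 12 of 25 were lower (median 0.0017), and from the floor to 5, 6 of 18 (median 0.063). Counted by gene, 2359 of 4134 and 2856 of 6043 other protein-coding genes were lower in these bands. In Rpl19 the bright feature differed by -0.62 and the dim one by 0.15, and in Rpl27 the pair was apart likewise (-0.55 and 0.020). The 5 features of Rpl41 were all over level 6 and ran from -0.94 to -0.17, which shows the scatter that features of 1 gene can have. With the mean of all features in place of the brightest, 1 member was at least 1.5-fold lower, not 8, and the median was -0.19.

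**Figure D4:**
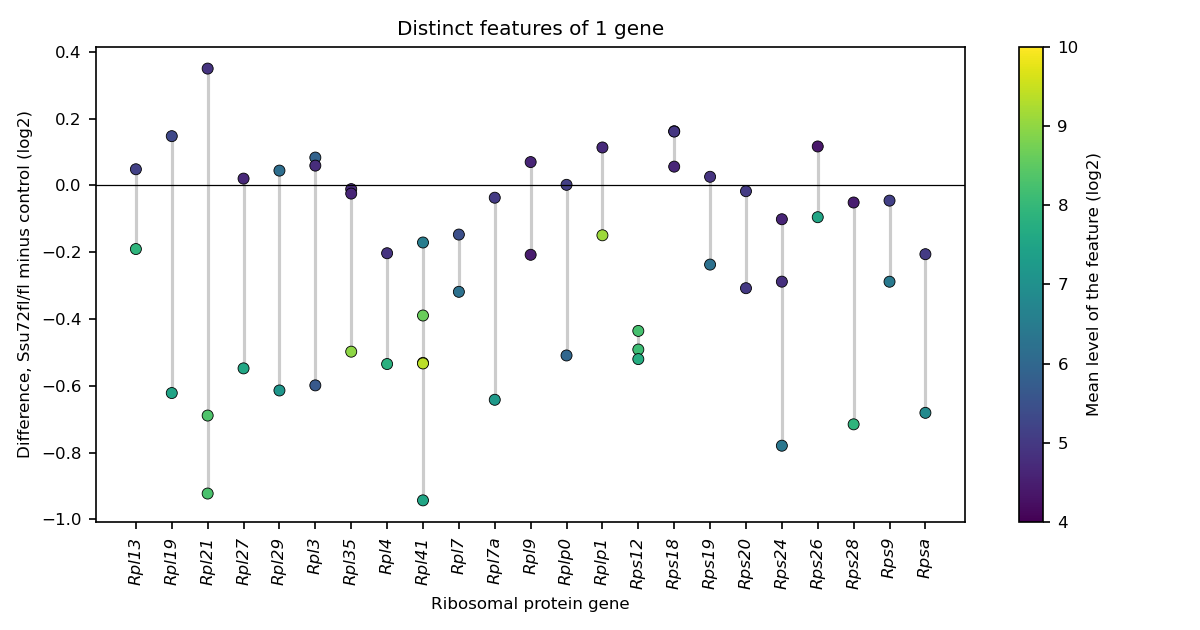
Difference (log2, vertical axis) of each distinct feature of the 23 ribosomal protein genes (horizontal axis) that had more than 1, coloured by the mean level of the feature (log2). Vertical lines join features of 1 gene. Of the features over level 6 all but 1, of Rpl29, lie below 0, and most dark points (dim features) lie closer to it.

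Several ribosomal protein genes hold genes of small nucleolar RNAs in their introns, which guide modification of rRNA and are released as the host transcript is spliced. By RefSeq positions, 43 such genes lay within 21 of the members, and 12 of them, in 11 hosts, had a feature of their own. All 12 were lower, with a median of -0.37 (level-adjusted -0.095, 7 of 12 lower), as were 73 of all 74 compared small nucleolar RNA genes (median -0.35). When level-adjusted, 45 of those 74 were lower (median -0.10), and of 31 other protein-coding genes with a mean level from 8 to 10, 31 were lower on the deposited scale. AF357399 within Rps16 was the lowest at 7.98 and 7.18 (-0.79, level-adjusted -0.33), while its host was the highest small subunit gene (0.35). Snord42b within Rpl23a was at 8.90 and 8.16 (-0.74, level-adjusted -0.28), and its host was at -0.72. Snord15a within Rps3 was at 8.40 and 7.71 (-0.69, level-adjusted -0.22), and its host at -0.29. On the deposited scale other pairs went opposite ways. Snord58b within Rpl17 was lower (8.36 and 8.09, -0.28) where Rpl17 was higher (0.37), and Snord83b (-0.23) and Snord43 (-0.19, a bound) were lower where Rpl3 was at 0.083. When level-adjusted, Snord58b (0.19) and Rpl17 (0.38) were both above 0, as were Snord83b (0.23) and Rpl3 (0.24), while AF357399 and Snord43 (-0.20) stayed below 0 and their hosts above. Snora69 (9.45 and 8.97) and Snord72 (6.58 and 6.20) had clear signal while their hosts Rpl39 and Rpl37 were below the floor. The smallest differences of nested RNAs with clear signal were in Snora7a of Rpl32 (-0.22) and Snora62 of Rpsa (-0.22), with Snora33 of Rps12 (-0.43), Snord16a of Rpl4 (-0.37), Snord72 (-0.37) and Snora69 (-0.48) between.

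Other mRNAs known to carry a TOP tract were lower as well. Of 15 compared genes that encode elongation factors, initiation factors and other TOP mRNAs, 14 were lower (against 51.9% of all compared genes), with a median of -0.36 (level-adjusted -0.11, 11 of 15 lower, against 44.8%). The lowest were the elongation factor subunit Eef1b2, at 5.68 and 5.08 (-0.61, level-adjusted -0.54), and the initiation factor subunit Eif3h, at 5.84 and 5.30 (-0.54, level-adjusted -0.44). The elongation factors Eef1a1 and Eef2 read 9.06 and 8.61 (-0.45, level-adjusted -0.013) and 7.98 and 7.63 (-0.36, level-adjusted 0.11). Npm1, the nucleolar chaperone nucleophosmin, was at 5.63 and 5.23 (-0.40, level-adjusted -0.33). The highest were Eif3e (0.18) and Nap1l1 (-0.028). This list kept a median below 0 on both scales, but the 2 lists were not tested against each other. Fau, whose product is cut into a ubiquitin-like protein and a small subunit protein, read 7.84 and 7.42 (-0.42, level-adjusted 0.046), and the ribosome-binding protein gene Serbp1 6.89 and 6.54 (-0.34, level-adjusted -0.0079).

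On the deposited scale, genes that build ribosomes showed smaller differences than the members' median of -0.24, mostly at low signal. This order did not hold on the level-adjusted scale, where the median of all members was -0.0020. Of 22 compared assembly factors of the large subunit, 18 were lower (median -0.10, level-adjusted -0.068 with 17 of 22 lower). They ran from Nsa2 (-0.55) and Ppan (-0.49) to Bop1 (0.20) and Rrs1 (0.38), the last being a nucleolar factor that brings Rpl5 and Rpl11 to the precursor. For the small subunit, 16 of 22 were lower (median -0.041, level-adjusted -0.045), from Nop56 (-0.61), a core protein of box C/D small nucleolar RNPs, and Dcaf13 (-0.37) to Nob1 (0.087) and Bysl (0.26). Nop56 read 9.25 and 8.64 (-0.61, level-adjusted -0.18). RNA polymerase I, which makes the large rRNAs, and its factors had 9 of 13 lower (median -0.071, level-adjusted -0.043). Its lowest were Taf1d (-0.66) and nucleolin, Ncl (-0.28), and its highest the subunits Polr1a (0.21) and Polr1d (0.21). RNA polymerase III and its factors were divided, with 6 of 14 lower and a median of 0.0047 (level-adjusted 0.014), from Polr3k (-0.28) and Polr3b (-0.25) to Gtf3c5 (0.10) and the repressor Maf1 (0.13). Chaperones and importins of ribosomal proteins had 13 of 19 lower (median -0.033, level-adjusted -0.053), from Bccip (-0.35, a bound) and Nap1l4 (-0.28) to Grwd1 (0.18) and Ipo4 (0.22).

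Among 19 compared genes of mTORC1 and TOP mRNA control, 12 were lower and 7 higher (median -0.090, level-adjusted -0.010, 10 of 19 lower). Larp1, the RNA-binding protein that holds TOP mRNAs when mTORC1 is off, was the highest at 6.09 and 6.39 (0.30, level-adjusted 0.53), and Rraga, a GTPase that signals amino acids to it, was at 0.14. The lowest were Lamtor3, a lysosomal anchor of mTORC1, at 7.26 and 6.60 (-0.66, level-adjusted -0.28), and the kinase Mtor, at 5.09 and 4.81 (-0.28, level-adjusted -0.26). Target genes of p53 and its regulator Mdm2, the response to free ribosomal proteins, had 4 of 10 lower and 6 higher (median 0.028, level-adjusted 0.074), from Aen (-0.23) and Pmaip1 (-0.11) to Sesn2 (0.18) and Bbc3 (0.31). Mdm2 read 5.35 and 5.24 and Cdkn1a, the cell cycle inhibitor, 6.05 and 6.07. Of 9 compared genes of ribosome rescue and quality control, 7 were lower (median -0.11, level-adjusted -0.052), from Tcf25 (-0.29) and Abce1 (-0.17) to Ltn1 (0.012) and Pelo (0.060). Of 8 genes of the integrated stress response, 7 were lower (median -0.054, level-adjusted -0.073), with Ddit3 (-0.38) and Ppp1r15a (-0.33) lowest and Sesn2 (0.18) the only one higher. None of these 10 lists, the TOP mRNAs included, was tested against other genes, and their counts are to be read against the 51.9% of all compared genes that were lower.

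**Figure D5:**
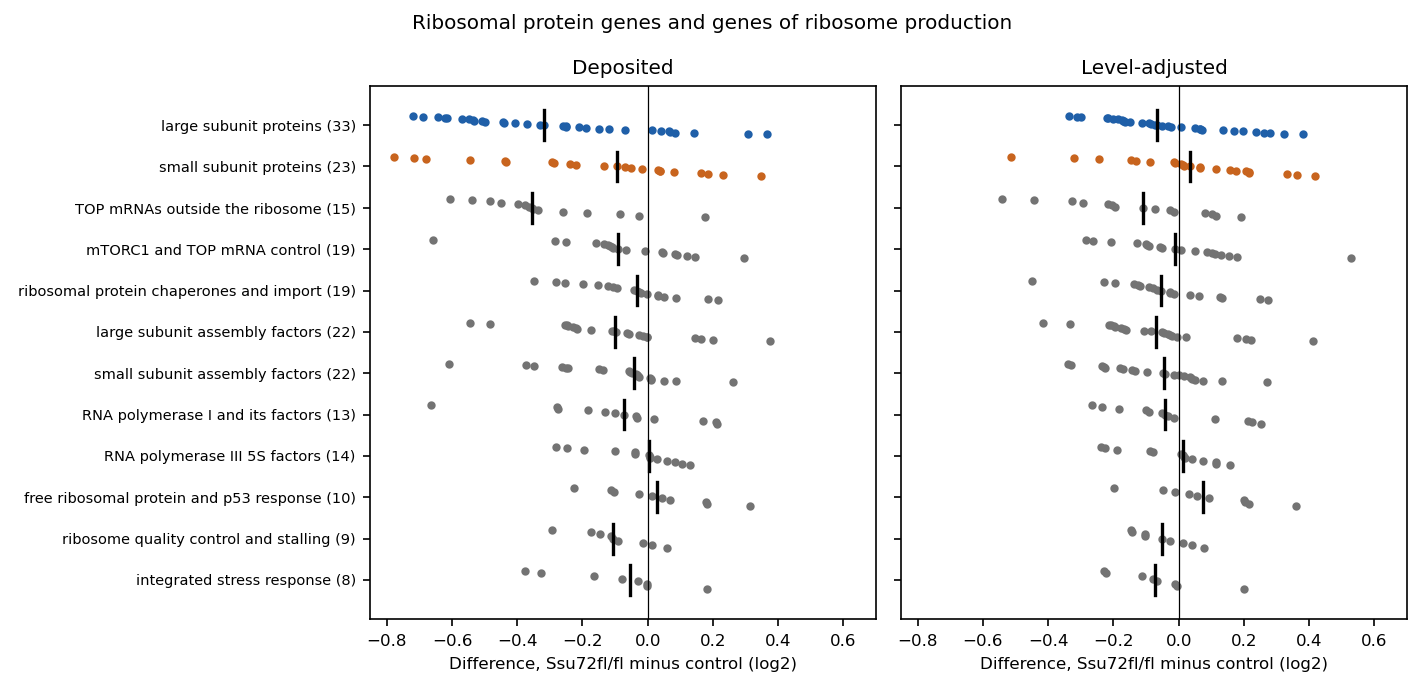
Difference (log2) of each compared gene, deposited (left) and level-adjusted (right), for the ribosomal protein genes of either subunit and 10 lists of ribosome production and its control. Points are genes, black bars medians, and numbers in brackets the compared genes. The medians of the large subunit (-0.32) and of the TOP mRNAs (-0.36) lie lowest on the deposited scale and move toward 0 on the right.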

How the data were processed

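The deposited values, 1 per feature and array, are on a log2 scale and are the authors' own; that the scale is log2 was inferred from the range of 4.23 to 13.5. MAS5 appears in the submitters' processing notes, with no step attached, and the sources used here do not give background correction, normalization or offset. An offset would make every log2 difference smaller than the true change. Column medians were 4.65 and 4.66. Of 33793 features, 23521 had 1 symbol, 1814 several and 8458 none in the platform annotation; 23328 were matched through Entrez identifiers to RefSeq (GRCm38.p6), which supplied names, biotypes, promoters and positions.

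Of the authors' deposited values, those below the floor (50th percentile of all values) were set to it. The spread at a level is a robust SD, the scaled median absolute deviation, taken over level-adjusted differences within 20 bins of mean level; the top bin runs from 6.18 to 13.1. For Ssu72 it is that of deposited differences. The trend was fitted by lowess (fraction 0.4) to medians of level bins 0.1 wide with at least 10 features (Python 3.11.15, statsmodels 0.14.6). It was tested on simulated data in which equal numbers of randomly chosen features were raised and lowered. A shift shared by all members was not simulated, so that test does not show how much of one the line would take up. Level-adjusted values use deposited values without the floor.

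Members and lists were chosen with earlier results of these data known. Members, the ends of each list and Ssu72 are named by rule. Further list genes (Eef1a1, Eef2, Npm1, Mdm2, Cdkn1a, Sftpc and Ighm) were named after their values were seen. The alternatives were other scalings, trends, floors, features and thresholds.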

Additional observations from a re-analysis of the deposited data

How the results depend on the processing

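The medians of the members depended on the scaling. Under quantile normalization, the level trend over all features, the trend fitted without the members and the trend fitted on protein-coding features (the last chosen after seeing the data), the median of all members was -0.016, -0.0020, -0.0066 and -0.024, that of the large subunit -0.068, -0.065, -0.076 and -0.068, and that of the small subunit 0.0047, 0.035, 0.025 and 0.021, which reversed the small subunit. For TOP mRNAs outside the ribosome it was -0.12, -0.11, -0.11 and -0.14. Under each of these 4 settings 0 members were at least 1.5-fold lower, against 8; with the mean of all features 1 was, and 0 were 2-fold lower. With median centring, with the floor at the 25th or at the 75th percentile, with features averaged and without divergent paralogues, the medians of all members and of each subunit stayed below 0, at -0.29 to -0.19, -0.39 to -0.25 and -0.14 to -0.082. Of the other lists, RNA polymerase III changed sign with median centring (-0.0072), and mTORC1 and TOP mRNA control came closer to 0 with the trend removed (-0.010). After the level trend was removed, 34 of 56 single members moved by more than 0.13, the robust SD of all compared genes' differences; under the higher floor 2 of 49 did (Rpl5 and Rpl17), and no member at least 1.5-fold lower turned higher in any setting. No paired analysis was possible because each genotype had 1 array. Signal over background limits the dim members: 10 of 66 gave no difference and 2 only a bound.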

Other observations

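Ribosomal protein features outside the 66 genes were read as well. Of 57 features annotated with several symbols, among them a cytosolic ribosomal protein symbol, 55 were compared and 35 were lower (median -0.12, level-adjusted 0.0095, 27 of 55 lower). No gene is named from them. The 9 of these that also carried a small nucleolar RNA symbol had 8 lower (median -0.14, level-adjusted -0.067). Of features named for 1 ribosomal protein pseudogene (-ps), 9 of 15 were compared, 5 lower and 4 higher (median -0.039, from -0.69 to 0.55). Rps3a1, a small subunit gene that the symbol rule does not take, read 7.86 and 7.75 (-0.11, level-adjusted 0.36); it was named after its values were seen.

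The genes of mitochondrial ribosomal proteins, whose ribosomes translate the mRNAs of the mitochondrial genome, lay mostly below level 6 (median level 4.94). Of 57 compared, 33 lay lower and 24 higher (median -0.030 and level-adjusted median 0.0011), and none was 1.5-fold different. The cytosolic members of levels 5 to 6 had a median of 0.034 (large subunit -0.21, small subunit 0.037). The compared mitochondrial genes ran from level 4.62 to 6.62, so these medians are not matched in level.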
